A study of Mus musculus with 6 samples.

Results

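The 5 dopamine receptor genes and 4 genes that mark neurons receiving dopamine were followed in the ribosome-associated RNA of mPFC D2 neurons. The members were taken by gene name from the deposited transcript table. They were Drd1, Drd2, Drd3, Drd4, Drd5, Adora2a, Ppp1r1b, Gpr6 and Foxp1, which are 9 of 47729 genes and hold 45 of 115220 transcripts. FPKM, the fragments per kilobase of transcript, scaled to the mapped fragments of a library, were used per transcript and as a gene total, the sum over all transcripts of a gene. Of the 9 genes, 8 were above 0 in at least 1 library, and 6 reached the mean of 1 FPKM over the 6 libraries that was asked for before a test.

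All 6 libraries came from the mPFC of adult male C57BL/6 mice of the D2Cre/LSL-Flag-Cas9/RiboTag line, 3 weeks after virus injection. The 3 Ctrl libraries came from mice given AAV GFP, and the 3 Gsk3sKO in mPFC D2 libraries (written Gsk3sKO here) from mice given AAV Gsk3sgRNA/GFP. Cre, Cas9 and the tagged ribosome were thus shared by the groups, which differed in the guide against Gsk3b. No guide is named for the control virus. Having any guide, the cutting of DNA by Cas9 and the loss of Gsk3b therefore cannot be told apart here. Cre came from a bacterial artificial chromosome transgene driven by Drd2 sequences, and it switched on both Cas9 and the hemagglutinin-tagged Rpl22 subunit by which ribosomes were pulled down. No library of the RNA before immunoprecipitation was analysed here, so enrichment over the tissue could not be measured. Nothing in the labels tells if a library is 1 mouse or a pool, and the p-values then measure only the spread between libraries, which may be technical.

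Dopamine acts on receptors of 2 classes. Those of the D1 class, encoded by Drd1 and Drd5, couple to stimulatory G proteins and raise cAMP, and those of the D2 class, encoded by Drd2, Drd3 and Drd4, couple to inhibitory G proteins and lower it. In the striatum, projection neurons with Drd2 also carry an adenosine receptor (Adora2a) and the constitutively active orphan receptor Gpr6, while those with Drd1 largely lack them. DARPP-32, the product of Ppp1r1b, is the substrate through which cAMP-dependent kinase inhibits protein phosphatase 1 in both kinds of neurons, and Foxp1 is a forkhead transcription factor of striatal projection neurons and of much of the cortex.

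The receptor message the Cre line is built on, Drd2, was listed as a single transcript, ENSMUST00000075764, of 2547 bases in 8 exons on the plus strand of chromosome 9 (GRCm38). The D2 receptor has a long and a short form that differ by 1 in-frame coding exon. The listed transcript holds this exon as exon 6, which is coding in full, 87 bases or 29 codons long, and lies at chr9:49403194-49403280. No transcript without it was listed, so the FPKM of Drd2 does not separate the forms. The exon is shown because it is the sequence that a count of the forms would rest on.
Drd2 exon 6: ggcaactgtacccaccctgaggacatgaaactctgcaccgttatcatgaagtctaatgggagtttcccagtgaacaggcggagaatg

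Of the 9 genes, 7 had at least 1 entry, 10 entries in all, in the RefSeq promoter table (GRCm38.p6). The 250 bases before the start are shown for Drd2, the gene of the Cre line, for Gpr6, the 1 window of the 10 with a cAMP response element, and for the internal start of Foxp1, near which the transcript with the largest difference between groups begins. Capitals mark any match, on either strand, to the GC box GGGCGG, the cAMP response element TGACGTCA, the TATA box TATAAA or the forkhead core TGTTTAC. These 4 motifs were found in the same window of 32.7%, 1.55%, 12.4% and 3.17% of all 32851 promoters, respectively.
Drd2, chr9:49340153-49340402, plus strand: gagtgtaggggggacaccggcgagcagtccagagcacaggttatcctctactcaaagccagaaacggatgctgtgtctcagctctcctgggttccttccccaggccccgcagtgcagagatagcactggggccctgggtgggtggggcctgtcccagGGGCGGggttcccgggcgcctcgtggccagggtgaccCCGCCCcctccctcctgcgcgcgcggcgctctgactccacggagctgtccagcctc
Gpr6, chr10:41072291-41072540, minus strand: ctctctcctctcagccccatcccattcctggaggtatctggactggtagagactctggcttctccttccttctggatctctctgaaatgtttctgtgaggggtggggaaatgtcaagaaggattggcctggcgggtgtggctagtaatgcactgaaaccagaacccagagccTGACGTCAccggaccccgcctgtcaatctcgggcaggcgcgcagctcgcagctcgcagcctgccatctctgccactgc
Foxp1, chr6:99028299-99028548, minus strand: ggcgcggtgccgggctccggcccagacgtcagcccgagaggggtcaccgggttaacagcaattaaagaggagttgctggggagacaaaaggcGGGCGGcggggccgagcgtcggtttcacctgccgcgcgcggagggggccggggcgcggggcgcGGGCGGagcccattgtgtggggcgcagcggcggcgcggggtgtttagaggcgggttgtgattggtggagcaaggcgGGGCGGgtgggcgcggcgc
The Drd2 window held 2 GC boxes and the Foxp1 window 3, at GC contents of 68.8% and 74%, against a median of 52.4% over all promoters. The Gpr6 window held 1 cAMP response element. The RefSeq start of Drd2 lay 224 bases before the first base of the listed transcript.

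The depth behind these values was read from the spacing of low FPKM and was about 45.2, 31.95 and 23.5 M fragments in Ctrl replicates 1 to 3 and about 41.3, 28.8 and 30.1 M in Gsk3sKO replicates 1 to 3. Over all genes, FPKM summed to 608528, 550660 and 414548 in Ctrl and to 422109, 398586 and 385795 in Gsk3sKO. The factors of the median-ratio scaling, an alternative given below, lay between 0.963 in Gsk3sKO replicate 3 and 1.06 in Ctrl replicates 2 and 3. The gene total of Gsk3b, the gene cut by the guide, was 35.6, 53.8 and 56.5 FPKM in Ctrl and 36.9, 37.0 and 33.6 FPKM in Gsk3sKO (limma log2 fold change -0.40, standard error 0.19, unadjusted p = 0.0648, adjusted p = 0.773). Ctrl replicate 1 lay inside the range of the Gsk3sKO libraries for this gene, so this gene does not separate that library from them, and the differences of the tested members are given with and without it. A small insertion or deletion need not lower the RNA, so the level does not check the cut, and Ctrl replicate 1 means the library labelled so. The labelled cell type was checked by its markers. Drd2 was above 0 in every library, and so were the GABAergic genes Sst (652 to 942 FPKM) and Gad1 (95.7 to 237 FPKM) and the glutamatergic gene Slc17a7 (192 to 273 FPKM). The dopamine transporter gene Slc6a3, which defines dopamine neurons themselves, was listed at 0 in all 6 libraries. Of 9 other genes known from dopamine neurons, 5 were listed at 0 in every library. Nr4a2 (1.61 to 7.08 FPKM) and Aldh1a1 (1.26 to 3.96 FPKM) of that list were above 0 in every library. A listed 0 can be a failed estimate, so these values do not show whether RNA of dopamine neurons was absent.

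Ppp1r1b and Foxp1 were the most abundant members, the D2 and D1 receptor messages followed, and the remaining receptors were lower still. On the FPKM scale, which is per length and can be compared between genes, the mean over the 6 libraries was 35.9 for Ppp1r1b, 27.2 for Foxp1, 7.21 for Drd2, 3.83 for Drd1, 2.34 for Gpr6, 2.28 for Adora2a, 0.405 for Drd5 and 0.0632 for Drd4. Drd3 was listed at 0 in all 6. Foxp1 and Drd2 were the only neighbours in this order whose ranges did not overlap. Ppp1r1b lay above Foxp1 in all 6 libraries, but by 0.38 ± 0.45 (SD, n = 6) on the log2(FPKM + 1) scale, which is less than its spread. Drd2 lay above Drd1 in 5 of 6 libraries, by 0.61 ± 0.67, and Gpr6 above Adora2a in 4 of 6, by 0.08 ± 0.44 (SD, n = 6), so these pairs did not differ beyond their spread.

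**Figure D1:**
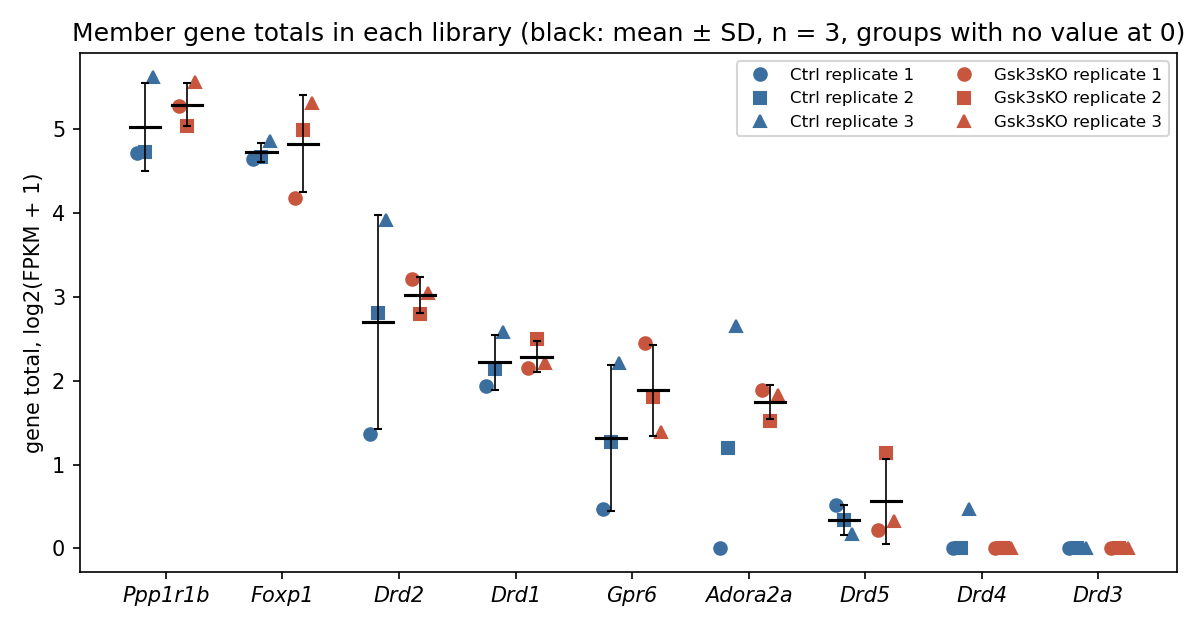
Gene totals of the 9 members on the log2(FPKM + 1) scale, 1 point per library, with blue for Ctrl and red for Gsk3sKO and the symbol for the replicate number. The black mark and bar give the mean and SD of the 3 libraries and are left out where a library is at 0. The points of Drd2, Adora2a and Gpr6 spread most within Ctrl, with replicate 1 lowest and replicate 3 highest.

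The members did not differ between Ctrl and Gsk3sKO beyond the spread of the libraries. In limma on log2(FPKM + 1), 0 of the 6 tested gene totals had an unadjusted p under 0.05, against 6.56% of all 12874 gene totals tested (1.36% higher and 5.2% lower in Gsk3sKO). At an adjusted p under 0.05 the count was 0 as well, against 0.0466% of all. An ordinary linear model without moderation also gave 0 at an unadjusted p under 0.05. The groups overlapped for all 6, where 12% of all gene totals tested had groups that did not overlap. The 6 fitted differences were all above 0, with a median of 0.30 on the log2 scale against -0.06 for all gene totals. That common sign was lost for 3 of them when Ctrl replicate 1 was left out.

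Drd2, the inhibitory receptor after which the neurons are named, varied more among the Ctrl libraries than between the groups. Its gene total was 1.58, 6.02 and 14.1 FPKM in Ctrl replicates 1 to 3 and 8.32, 5.96 and 7.28 FPKM in Gsk3sKO replicates 1 to 3. The highest library held 8.89 times the lowest, and these were both Ctrl libraries, with the Gsk3sKO libraries lying between them. The means were 7.22 ± 6.33 FPKM for Ctrl against 7.19 ± 1.18 FPKM for Gsk3sKO, each as SD with n = 3 (2-sided exact permutation test on log2(FPKM + 1), p = 0.8, where 3 libraries against 3 cannot go below 0.1). The limma log2 fold change was 0.32 (standard error 0.55, 95% interval -0.93 to 1.58, adjusted p = 0.935). Leaving out Ctrl replicate 1 turned it to -0.34, with an unadjusted limma p of 0.361, and leaving out Ctrl replicate 3 brought it to 0.93, with an unadjusted limma p of 0.0652. In this bulk measurement fewer D2 neurons and less Drd2 RNA per neuron cannot be told apart. The 1.58 FPKM of Ctrl replicate 1 stands for about 182 fragments by the approximate depth estimate.

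Drd3 and Drd4, the other receptors of the D2 class, were close to or at the lower end of the measurement. Drd3, whose receptor is best known from the nucleus accumbens, was listed at 0 in every library. Drd4 was listed at 0.379 FPKM in Ctrl replicate 3, about 25.0 fragments, and at 0 in the other 5 libraries (2-sided exact permutation test, p = 1). Ctrl replicate 3, the shallowest library by the approximate depth estimate, was also the one with the highest Drd2. It had 19603 genes above 0, against 18887 in Ctrl replicate 1, the deepest by that estimate. A value of 0 in this table can be a failed estimate and is not taken as absence.

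Drd1, of the D1 class, spread less than Drd2, and Drd5 did not. Drd1, the stimulatory receptor of the direct striatal pathway that is also carried by cortical neurons, was 2.83, 3.40 and 4.98 FPKM in Ctrl and 3.44, 4.65 and 3.65 FPKM in Gsk3sKO. Its highest library held 1.76 times its lowest, and the Gsk3sKO libraries all lay within the Ctrl range. The means were 3.74 ± 1.11 FPKM (SD, n = 3) and 3.91 ± 0.647 FPKM (SD, n = 3), with a limma log2 fold change of 0.07 (standard error 0.26, 95% interval -0.53 to 0.67, adjusted p = 0.969). Without Ctrl replicate 1 the Drd1 difference was -0.070, at an unadjusted limma p of 0.804. Drd5, the stimulatory receptor with the higher affinity for dopamine, was 0.436, 0.264 and 0.122 FPKM in Ctrl and 0.162, 1.20 and 0.253 FPKM in Gsk3sKO. Gsk3sKO replicate 2 was the highest, and the other 2 libraries of its group lay inside the Ctrl range (2-sided exact permutation test, p = 0.7). These Drd5 values stand for about 9.02 to 109 fragments, and the gene did not reach the mean of 1 FPKM needed for limma.

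The balance of Drd2 to Drd1 followed Drd2. The ratio of their FPKM was 0.560, 1.77 and 2.82 in Ctrl and 2.42, 1.28 and 1.99 in Gsk3sKO. Ctrl replicate 1 was the single library with less Drd2 than Drd1, and the 3 Gsk3sKO ratios lay inside the Ctrl range (2-sided exact permutation test, p = 0.9).

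The Gs-coupled partners of Drd2 in striatal projection neurons had the same order among Ctrl libraries as Drd2. In Ctrl, Adora2a had 0, 1.29 and 5.27 FPKM, and in Gsk3sKO 2.72, 1.87 and 2.55 FPKM. It was listed at 0 in the library with the lowest Drd2 and was highest in the one with the highest Drd2. Its limma log2 fold change was 0.47 (standard error 0.59, 95% interval -0.90 to 1.83, adjusted p = 0.913), and the exact permutation test gave p = 0.7. Without Ctrl replicate 3 the value rose to 1.15 at an unadjusted limma p of 0.0357, and without Ctrl replicate 1 it turned to -0.17 at an unadjusted limma p of 0.711. Gpr6, which raises cAMP without a known need for a ligand, was 0.381, 1.40 and 3.62 FPKM in Ctrl and 4.48, 2.51 and 1.61 FPKM in Gsk3sKO. Here Gsk3sKO replicate 1 was the highest library, and Ctrl replicate 1 again the lowest. The means were 1.80 ± 1.66 FPKM and 2.87 ± 1.47 FPKM (SD, n = 3 each), with a limma log2 fold change of 0.57 (standard error 0.48, 95% interval -0.53 to 1.67, adjusted p = 0.865). The 2-sided exact permutation test for Gpr6 gave p = 0.4. Leaving out Ctrl replicate 1 lowered the Gpr6 difference to 0.15, and leaving out Ctrl replicate 3 raised it to 1.02, at unadjusted limma p of 0.747 and 0.0568. Relative to Drd2, Gpr6 stood at 0.241, 0.233 and 0.257 for Ctrl against 0.539, 0.421 and 0.221 for Gsk3sKO, again with overlap (2-sided exact permutation test, p = 0.4).

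**Figure D2:**
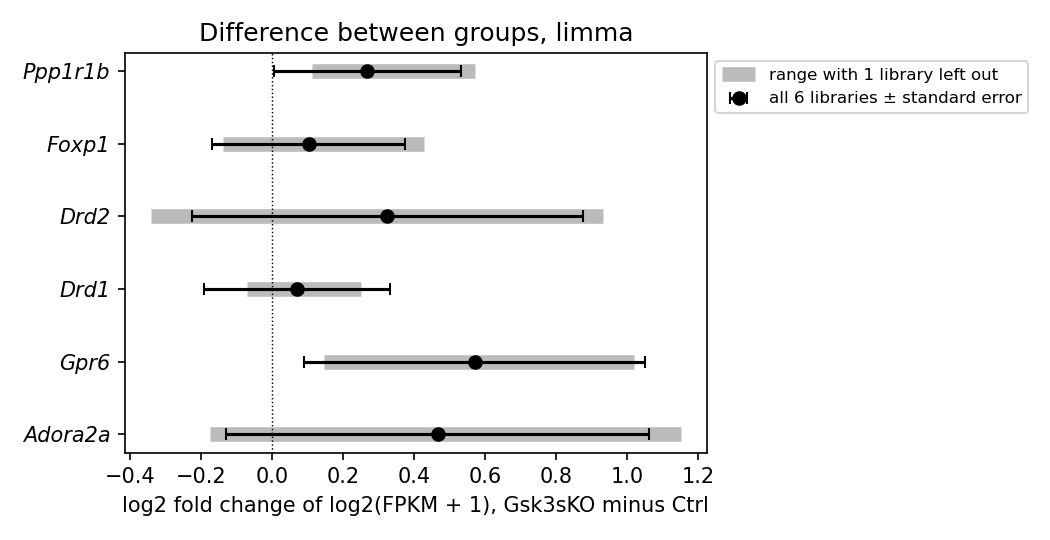
Limma log2 fold change (Gsk3sKO minus Ctrl, log2(FPKM + 1) scale) of the 6 tested gene totals. Points and bars give the value and standard error from all 6 libraries, and the grey band runs from the lowest to the highest value with 1 library left out. The bands of Drd1, Drd2, Adora2a and Foxp1 cross 0, and those of Ppp1r1b and Gpr6 stay above it.

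Ppp1r1b, which encodes the DARPP-32 regulator below both receptor classes, was the highest of the members. Its gene total was 25.3, 25.6 and 48.5 FPKM in Ctrl and 37.9, 31.9 and 46.2 FPKM in Gsk3sKO. Ctrl replicate 3 stood above the other Ctrl libraries, and all 3 Gsk3sKO libraries lay between these and Ctrl replicate 3. The means were 33.1 ± 13.3 FPKM and 38.7 ± 7.15 FPKM (SD, n = 3 each), and the limma log2 fold change was 0.27 (standard error 0.26, 95% interval -0.34 to 0.87, adjusted p = 0.879). The exact permutation test gave p = 0.6. The call turned on Ctrl replicate 3, without which the log2 fold change was 0.57 with an unadjusted limma p of 0.0205. Without Ctrl replicate 1 it was 0.11, at an unadjusted limma p of 0.703.

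All 7 transcripts listed for Ppp1r1b were above 0 in at least 1 library, and 5 of them reached the mean of 1 FPKM. Transcript ENSMUST00000078694, which is protein coding and 2001 bases long, held 58.4%, 71.8% and 71.7% of the gene total in Ctrl and 77.5%, 64.3% and 71.5% in Gsk3sKO. It was the leading transcript in every library, and the shares of the groups overlapped (71.1% ± 6.61 against 67.3% ± 7.71, SD, n = 3 each, 2-sided exact permutation test, p = 0.7). Without Ctrl replicate 3 its log2 fold change was 0.69, against 0.34 with all libraries, and the unadjusted limma p was 0.0459, against 0.362. The next, ENSMUST00000150762, held between 4.62% and 20.4% in the 6 libraries (2-sided exact permutation test on its share, p = 0.4). The 2 transcripts listed as retained introns and the 2 as processed transcripts encode no annotated protein.

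Foxp1 spread more in Gsk3sKO than in Ctrl. Its gene total was 24.1, 24.6 and 28.0 FPKM in Ctrl and 17.2, 30.9 and 38.8 FPKM in Gsk3sKO. The Gsk3sKO libraries lay on both sides of the Ctrl range, with replicate 1 below it and replicates 2 and 3 above it. The means were 25.6 ± 2.11 FPKM and 28.9 ± 10.9 FPKM (SD, n = 3 each), with a limma log2 fold change of 0.10 (standard error 0.27, 95% interval -0.52 to 0.72, adjusted p = 0.956). The exact permutation test gave p = 0.9. The value was 0.43 with an unadjusted limma p of 0.0483 without Gsk3sKO replicate 1, and -0.14 without Gsk3sKO replicate 3. Without Ctrl replicate 1 the Foxp1 difference was 0.065.

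Foxp1 was also the member with the most transcripts, 31, of which 28 were above 0 in at least 1 library, 5 in every library, and 7 at a mean of at least 1 FPKM. The leading transcript was not the same in all libraries. ENSMUST00000113322 (Foxp1-204), with 705 codons in 16 coding exons, had 0, 11.5 and 13.2 FPKM across Ctrl, against 10.9, 2.68 and 6.24 FPKM across Gsk3sKO. It led in Ctrl replicates 2 and 3 and in Gsk3sKO replicate 1, with 46.9%, 47.3% and 63.6% of the gene total. In Ctrl replicate 1 it was listed at 0, and ENSMUST00000176565 (Foxp1-220), which has the same number of codons, led with 34.9%. In Gsk3sKO replicates 2 and 3 the lead passed to ENSMUST00000177437 (Foxp1-230).

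Foxp1-230 had the largest fitted difference of all member transcripts. Its values were 0, 0.662 and 2.30 FPKM for Ctrl, against 1.13, 18.6 and 12.6 FPKM for Gsk3sKO. Gsk3sKO replicates 2 and 3 stood above every Ctrl library, while Gsk3sKO replicate 1 lay within the Ctrl range. In limma the difference was 2.23 on the log2 scale, with a standard error of 0.93, an unadjusted p of 0.0505 and an adjusted p of 0.842. The value became 3.21 without Gsk3sKO replicate 1, at an unadjusted limma p of 0.0033, and 1.61 without Gsk3sKO replicate 2, at an unadjusted limma p of 0.164. With the replicate number as a block the unadjusted limma p was 0.0176, and after median-ratio scaling it was 0.0483. It was 0.0513 without a filter, 0.0570 with a pseudocount of 0.1 and 0.0815 at a mean of at least 5 FPKM. The ordinary linear model gave an unadjusted p of 0.114. The replicate numbers were not taken as pairs, as set out in the closing section, so the block is given as an alternative only. Its share of the gene total was 0%, 2.70% and 8.21% in Ctrl and 6.60%, 60.3% and 32.6% in Gsk3sKO (2-sided exact permutation test, p = 0.2).

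The annotation places Foxp1-230 at an internal start. Its 576 codons lie in 14 coding exons, of which 12 are identical to exons of Foxp1-204, and the first 2 coding exons of Foxp1-204 lie upstream of its coding start at position 99016647 of chromosome 6. Its first base lies 40 bases after the RefSeq start whose promoter is shown above. Over the 5 Foxp1 transcripts that begin within 500 bases of this start, a grouping made after the values were seen, the summed FPKM was 4.92, 1.89 and 5.25 in Ctrl and 1.96, 19.5 and 14.3 in Gsk3sKO. Over the 23 that begin further upstream it was 19.1, 22.4 and 22.7 in Ctrl and 14.7, 11.3 and 24.3 in Gsk3sKO. Most of the sum near the internal start in Gsk3sKO replicates 2 and 3 was Foxp1-230 itself. The other 4 transcripts there summed to 4.92, 1.23 and 2.96 FPKM in Ctrl and to 0.832, 0.869 and 1.63 FPKM in Gsk3sKO, so they were not high in those libraries. The upstream sum in Gsk3sKO lay below the Ctrl range in replicates 1 and 2 and above it in replicate 3. The split of fragments between overlapping transcripts is an estimate by the authors' assembler, and its part in these values was not tested.

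**Figure D3:**
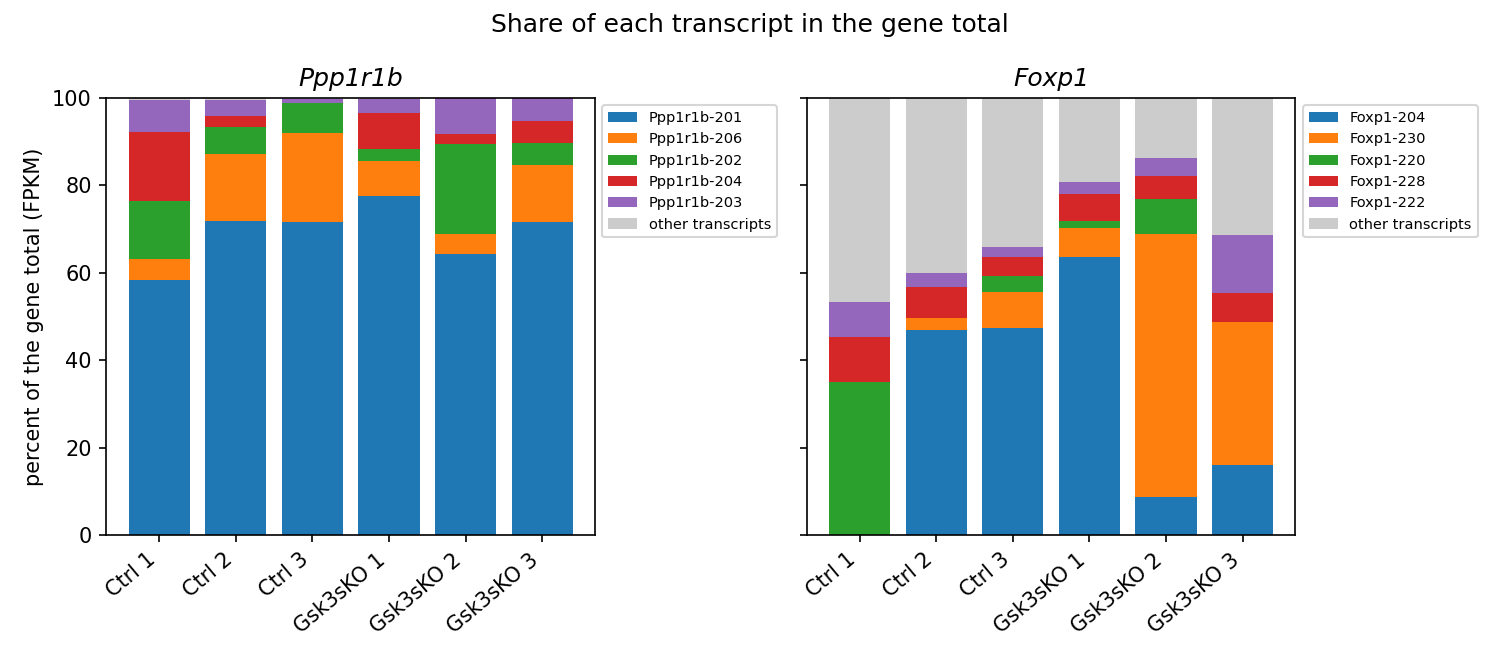
Share of each transcript in the gene total, in percent of FPKM, for Ppp1r1b and Foxp1 in each library. The 5 transcripts with the highest mean share are coloured and the rest are grey. Ppp1r1b-201 leads in all 6 libraries, while Foxp1-204, Foxp1-220 and Foxp1-230 lead in different ones.

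Across all member transcripts, 16 of 45 reached a mean of 1 FPKM and were tested. In limma 0 of them had an unadjusted p under 0.05, against 5.56% of all 21584 transcripts tested (1.81% higher and 3.75% lower in Gsk3sKO), and 0 had an adjusted p under 0.05, while the ordinary linear model also called 0. For none of the tested transcripts of Ppp1r1b and Foxp1 were the groups without overlap, where 11.2% of all transcripts tested had groups that did not overlap.

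The members tended to be extreme in the same libraries. Of the 6 tested members, 5 were lowest in Ctrl replicate 1, the library in which 24.4% of all gene totals tested were lowest, and Foxp1 was lowest in Gsk3sKO replicate 1. Of the 6, 4 were highest in Ctrl replicate 3, where 18.7% of all gene totals tested were highest. This is a description of 6 libraries and of genes chosen for their known relation to one another. It was shared by other genes known from striatal projection neurons, a list of 35 of which 27 were tested. Of these 27, 14 were lowest in Ctrl replicate 1 and 14 highest in Ctrl replicate 3, while 11 were highest in Gsk3sKO replicate 3. The summed FPKM of the list was 518, 564 and 909 in Ctrl and 692, 624 and 796 in Gsk3sKO, again with the Gsk3sKO libraries inside the Ctrl range. None of the 35 was listed at 0 in every library, though Isl1 was listed at 0 in 3 and at most at 0.757 FPKM. Whether the content of such neurons in the dissected tissue had a part in the spread of Drd2 and Adora2a was not tested. Low values in Ctrl replicate 1 were not particular to striatal genes. Of 10 genes of endothelial cells, 6 were lowest there, with a median deviation of -0.77 on the log2 scale against -0.79 for the members and -0.30 for the striatal list. The summed endothelial FPKM was 21.4, 85.9 and 44.3 in Ctrl, and 27.8, 32.6 and 72.0 in Gsk3sKO, so that it was highest in Ctrl replicate 2, where the members were not.

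Single genes of that list gave the same picture for the opioid precursor Penk, a marker of Drd2 projection neurons, which was 96.5, 112 and 295 FPKM in Ctrl and 172, 136 and 281 FPKM in Gsk3sKO. Scn4b, a sodium channel subunit, was 2.64, 5.33 and 9.05 FPKM in Ctrl and 8.33, 8.61 and 8.12 FPKM in Gsk3sKO. Ctrl replicate 1 was the lowest library for both genes. Pdyn, the opioid precursor of Drd1 projection neurons, was 14.4, 12.8 and 19.0 FPKM in Ctrl and 13.2, 13.5 and 10.2 FPKM in Gsk3sKO, and was lowest in Gsk3sKO replicate 3. Tac1, another precursor gene of Drd1 projection neurons, was 8.25, 17.4 and 15.1 FPKM in Ctrl and 16.3, 9.05 and 23.7 FPKM in Gsk3sKO. Unlike Pdyn, both Tac1 and Drd1 were lowest in Ctrl replicate 1, so low values there were not particular to genes of Drd2 projection neurons. These single genes of the list were picked after their values were seen. In limma 0 of the 27 genes had an unadjusted p under 0.05, with a median log2 fold change of 0.16, or -0.06 without Ctrl replicate 1.

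**Figure D4:**
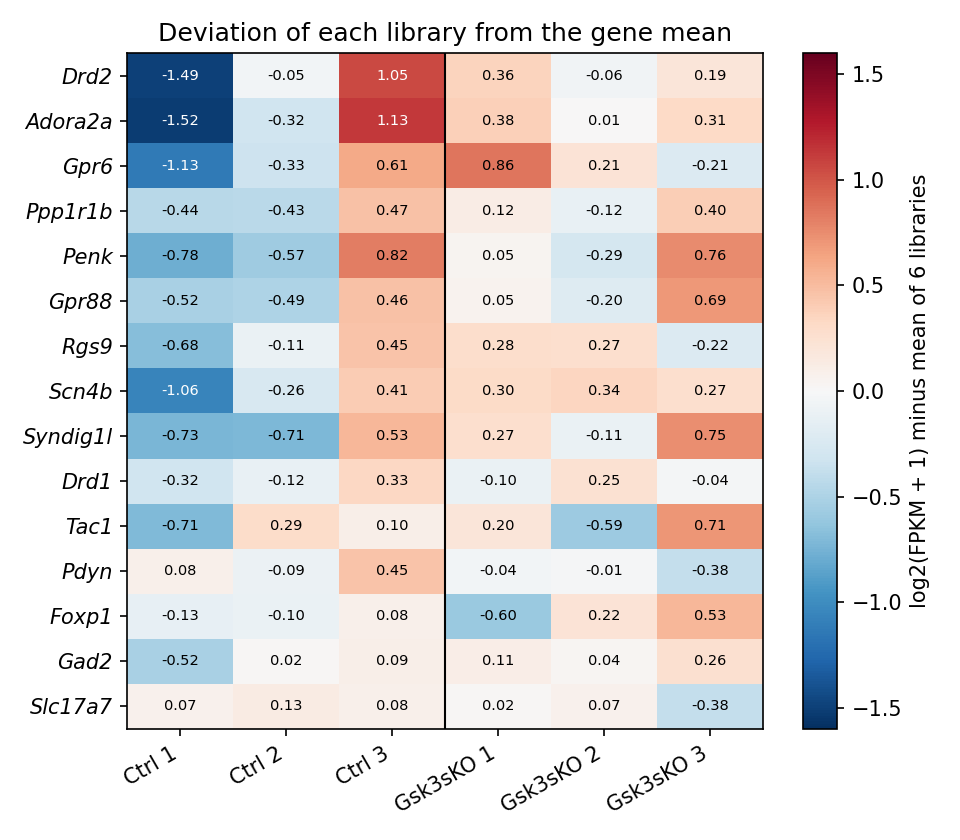
Deviation of each library from the mean of the 6 libraries, on the log2(FPKM + 1) scale, for 6 members and 9 other genes picked after their values were seen (rows), with red above and blue below the mean. Drd2 reaches -1.49 in Ctrl replicate 1 and 1.05 in Ctrl replicate 3, and Adora2a -1.52 and 1.13, while Slc17a7 stays within 0.13 of its mean in all libraries but Gsk3sKO replicate 3.

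The gene totals whose profiles over the 6 libraries were most like those of the receptors were named by rank, as the 3 highest Pearson correlations of log2(FPKM + 1) among 12868 gene totals that are no members. For Drd2 these were Ankrd37 (r = 0.997), the forkhead factor Foxo1 (r = 0.993) and the coatomer subunit Copb1 (r = 0.989), and 224 gene totals had r of at least 0.9. For Drd1 they were Sdk2 (r = 0.988), Clint1 (r = 0.985) and Kansl2-ps (r = 0.982). For Ppp1r1b they were Dcun1d4 (r = 0.998), Dhx36 (r = 0.991) and Penk (r = 0.986). With 6 points and this many genes, high values of r are found for any profile, so they are given as a description without a test.

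The genes around the receptors were called no more often than the 6.56% of all gene totals (1.36% higher and 5.2% lower). Among genes of the cAMP, cAMP-dependent kinase and DARPP-32 cascade, 1 of 36 was higher and 0 were lower in Gsk3sKO at an unadjusted limma p under 0.05, with a median log2 fold change of -0.05. This was Ppp3cb, a catalytic subunit of calcineurin, the phosphatase that removes the activating phosphate from DARPP-32. It was 50.9, 42.9 and 91.4 FPKM in Ctrl and 98.8, 99.8 and 102 FPKM in Gsk3sKO, without overlap of the groups. The fitted difference by limma was 0.76 on the log2 scale with a standard error of 0.25, at an unadjusted p of 0.0157 and an adjusted p of 0.688. Of 26 tested proteins that bind or desensitize dopamine receptors, 0 had an unadjusted limma p under 0.05, and the median log2 fold change was 0.02.

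Of the 13 genes that make, carry and break down dopamine, 6 were tested and 0 had an unadjusted limma p under 0.05 (median log2 fold change -0.15). Tyrosine hydroxylase (Th), the rate-limiting enzyme of dopamine synthesis, had 0, 0.552 and 1.25 FPKM across Ctrl, against 1.11, 1.05 and 0 FPKM across Gsk3sKO. Ddc, which makes dopamine from L-DOPA, was the 1 gene of the list whose groups did not overlap, with 0.357, 1.01 and 1.14 FPKM across Ctrl, while all 3 Gsk3sKO libraries were listed at 0 (2-sided exact permutation test, p = 0.1, the smallest possible here). Over all gene totals tested, 12% had groups that did not overlap. That share covers only gene totals at a mean of at least 1 FPKM, which Ddc did not reach, so it cannot be set against Ddc directly. Whether 1 such gene in this list stands out was not tested, and Ddc is named after its values were seen. Of the relatives of Foxp1, Foxp2 and Foxp4 were tested, with log2 fold changes of 0.14 and -0.39 and adjusted p of 0.957 and 0.9 in limma.

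Markers of other cells were measured beside the members. Over the 167 tested genes of all lists other than the members, 9 had an unadjusted limma p under 0.05, a share of 5.39%, of which 1 was higher and 8 lower in Gsk3sKO. Over all gene totals tested the share was 6.56%, with 175 higher and 669 lower, so neither the count nor its lean to lower values stood out, and the genes that follow are named as a description. The lowest adjusted p among them was 0.607 in limma, for Mog. Among the lower genes were Tbr1 and Cux2 of 13 genes of excitatory cortical neurons, with log2 fold changes of -0.40 and -0.43, and Dlx6 of 19 genes of GABAergic neurons at -0.77. The myelin genes Cnp, Mag and Mog were lower, 3 of 9 tested genes of oligodendrocytes, with log2 fold changes of -0.72, -0.69 and -1.57. The complement genes C1qa and C1qb were lower, 2 of 8 tested genes of microglia, at -0.82 and -0.67. The summed FPKM of the GABAergic list was 1812, 2203 and 1717 in Ctrl and 1695, 1734 and 1607 in Gsk3sKO, and that of the excitatory list 966, 1031 and 1096 in Ctrl and 1119, 1122 and 919 in Gsk3sKO. Of the 19 GABAergic genes 7 were lowest in Ctrl replicate 1, Gad1, Gad2 and Slc32a1 among them. The GABAergic sum was lowest among Ctrl libraries in replicate 3 and the excitatory sum in replicate 1. Sst (652 to 942 FPKM) and Cck (332 to 502 FPKM) weighed most in the GABAergic sum, so it does not stand for the list as a whole. The summed FPKM of the microglia list was 54.1, 43.0 and 42.8 for Ctrl against 32.0, 35.8 and 41.8 for Gsk3sKO, and that of the oligodendrocyte list 129, 198 and 189 against 173, 135 and 171. The part of these cells in the values of the members was not tested.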

How the data were processed

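The deposited values are FPKM per transcript and library, and per the labels the authors made them with HISAT2 2.1.0, SAMtools 1.9 and StringTie 1.3.4d on GRCm38. No settings are stated in the sources at hand. The authors also deposited a fold (a ratio) and a p-value and q-value for each transcript from their own comparison, which were not used. FPKM were summed by gene ID. The 9 members and the lists were chosen with earlier results of these data known.

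The groups were compared with limma 3.58.1 in R 4.3.3 (lmFit, eBayes with a trend) on log2(FPKM + 1) for features averaging 1 FPKM or more across the 6 libraries, 2-sided, with Benjamini-Hochberg adjustment over all features tested and no covariate. A fold on this scale understates changes of low genes. Single values were compared by exact permutation over the 6 libraries. A share is a transcript's percent of the gene total, and shares of at least 10% on average were compared. The fit was tested on simulated data. Named genes were all members, their transcripts over that share, genes of the other lists at an unadjusted p under 0.05 and, for Drd1, Drd2 and Ppp1r1b, the 3 most like profiles. Other names were picked with their values known.

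The table holds no counts. Depth was estimated from the step between low FPKM of genes with 1 transcript longer than 800 bases, taking a step as 1 mate of a pair. Between 7.94% and 13.2% of those values lay within 0.01 of a whole step, so depths and their order are approximate. Fragments per value cover counting error only. Of the 115220 transcripts, 114237 were found in GENCODE M21 and 983 were not. No column of library values was left out. Figures were drawn with Python 3.11.15 and matplotlib 3.10.9.

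Alternatives were a pseudocount of 0.1, no filter, a mean of at least 5 FPKM, median-ratio scaling, a replicate block, no variance moderation, leaving out each library and, added after the data were seen, totals of protein-coding transcripts alone.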

Additional observations from a re-analysis of the deposited data

How the results depend on the processing

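The count of 0 called gene totals of the members was between 0 and 2 with 1 library left out, namely 2 without Ctrl replicate 3 (Adora2a and Ppp1r1b) and 1 without Gsk3sKO replicate 1 (Foxp1), and was 0 under every other setting. The count of 0 called member transcripts was 1 without a filter (a retained intron of Foxp1), 1 after median-ratio scaling, and between 0 and 1 with 1 library left out. The 9 called genes of the other lists became 5 at a mean of at least 5 FPKM and between 4 and 14 with 1 library left out, lowest without Ctrl replicate 2 and highest without Ctrl replicate 3. Transcript shares without overlap between the groups were 0, and between 0 and 1 with 1 library left out.

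With 1 library left out, the log2 fold change lay between -0.34 and 0.93 for Drd2, -0.17 and 1.15 for Adora2a, -0.070 and 0.25 for Drd1, 0.15 and 1.02 for Gpr6, 0.11 and 0.57 for Ppp1r1b, -0.14 and 0.43 for Foxp1, -0.83 and 0.33 for Ppp1r1b ENSMUST00000150762, and -0.97 and 0.95 for Foxp1 ENSMUST00000113322. The cause was not tested. A mean of at least 5 FPKM left no value for Drd1, Gpr6 and Adora2a.

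The labels number the libraries of each group from 1 to 3. Deviations of same-numbered libraries from their group means had correlations of -0.027, -0.011 and -0.081 over gene totals, so the numbers were not taken as pairs. With the replicate block the count of called member transcripts was 1 (Foxp1 ENSMUST00000177437) and that of gene totals 0. Drd3, Drd4 and Drd5 did not reach the mean of 1 FPKM, and without that filter Drd4 and Drd5 entered the fit and were not called.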
